A study of Mus musculus with 167 samples.

Results

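Mouse embryonic fibroblasts carrying a Clec9a lineage reporter were transduced with the transcription factors Spib, Irf8 and Ikzf2 (the cocktail SII) and sorted after 3 days into cells that were positive for the reporter and for CD45, and into cells sorted on the reporter alone. The comparison below sets the 4 libraries of the double positive gate (live, DAPI-, tdT+CD45+) against the 3 libraries of the reporter gate (live, DAPI-, tdT+). The 7 libraries were chosen by their titles from the 167 of the series. All came from the C9a line, whose genotype is Clec9a(Cre/Cre) Rosa26(tdTomato/tdTomato), so both gates carried both alleles as well as the 3 lentiviral factors. The labels do not say whether CD45+ cells were kept out of the tdT+ gate, so the tdT+ cells may include double positive cells. Each extraction held RNA of 5000 cells. The labels do not say that replicates were separate cultures, so every p-value here measures only the spread between these samples, which may be technical.

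The reporter works as a lineage trace: Clec9a encodes a lectin receptor of conventional dendritic cells type 1 and their precursors, and Cre made from that locus switches on tdTomato for good, also after the locus has gone silent. CD45, the product of Ptprc, is a receptor tyrosine phosphatase on the surface of nucleated blood cells and is absent from fibroblasts, so its appearance is commonly read as a blood cell trait in reprogrammed fibroblasts. Spib encodes an Ets factor close to PU.1 that acts in plasmacytoid dendritic cells and B cells. Irf8 encodes a partner of such Ets factors and is needed for conventional type 1 and plasmacytoid dendritic cells. Ikzf2 encodes Helios, an Ikaros family zinc finger protein.

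Levels are given in CPM, counts scaled to each library's size with TMM factors over these 7 libraries, and are listed from replicate 1 to replicate 4 or 3. A value with ± in parentheses after them is the log2 fold change, double positive over tdT+, with its standard error (SE). Ptprc, the gene of the sorting marker, is described without a test because it defines the gates. It had 349, 1.48, 312 and 106.1 CPM in the double positive libraries, against 16.5, 137 and 148 CPM in the tdT+ libraries. The library labelled double positive replicate 2 thus had almost no Ptprc RNA, and tdT+ replicate 1 had the least of its gate. The labels allow no check of how these 2 libraries were sorted, so each is called by its labelled gate throughout. Double positive replicate 4 was below tdT+ replicates 2 and 3, so the gates overlapped even without replicate 2. Because of that library, each result is given over all 7 libraries and, where it matters, without double positive replicate 2. Ptprc is on chromosome 1 (GRCm38.p6, 138062859 to 138175756). The bases before one of its 2 RefSeq starts are shown because this is the locus on which the gates turn. The start was picked by the number of copies of the letters searched, so a match was favoured by the choice. The bases shown hold 1 copy of the core letters of the PU.1 and SPI-B motif, GAGGAA, in capitals (searched on both strands).

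Ptprc, chr1:138175306-138175555, minus strand: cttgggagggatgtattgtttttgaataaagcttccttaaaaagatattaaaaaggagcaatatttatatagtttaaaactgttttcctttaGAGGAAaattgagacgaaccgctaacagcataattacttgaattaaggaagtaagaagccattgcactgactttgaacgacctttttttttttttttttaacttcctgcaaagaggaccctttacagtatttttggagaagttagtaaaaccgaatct

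The same letters stood in 23.3% of all 32851 promoter windows of 250 bases, and, counted by gene, in windows of 8 of the 18 pan-leukocyte genes that have one, against 25.9% of 27025 genes. This match is a description of the letters and does not show that a factor binds there.

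Total counts ran from 5267752 to 14579352 in the double positive libraries, the lowest in replicate 2, and from 8682810 to 12328624 in the tdT+ libraries. A total of 3 counts, the limit set by a gene with no counts, amounted to 0.206 to 0.570 CPM (counting error only). Identifiers without a gene name took 7.93% to 23.3% of the counts and mitochondrially encoded genes 4.80% to 7.34%. Shares of olfactory and vomeronasal receptor genes were 0.0772%, 0.184%, 0.0971% and 0.0423% in double positive libraries. In tdT+ libraries they were 0.0802%, 0.0414% and 0.0451%. Identifiers with any count numbered 31639, 32147, 33665 and 26518, against 33330, 27849 and 26026. In both, double positive replicate 4 stood with tdT+ replicates 2 and 3. The part of this split in the levels below was not tested.

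No gene passed the test between the gates. Of 15836 genes tested with edgeR's quasi-likelihood test, 0 were higher and 0 lower in double positive cells at an adjusted p below 0.05 and a change of at least 2-fold, a background of 0% in each direction. The lowest adjusted p was 0.98, and 415 genes (2.62%) had an unadjusted p below 0.05. Without double positive replicate 2, edgeR again called 0 of 15297 genes, with a lowest adjusted p of 0.9996 and 348 genes (2.27%) at an unadjusted p below 0.05. DESeq2's Wald test also called 0 genes of at least 2-fold, with 533 at an unadjusted p below 0.05. It gave 1 gene an adjusted p below 0.05 whatever the fold, the fatty acid transporter gene Cd36 (adjusted p = 0.000754). Without double positive replicate 2 DESeq2 called 1 gene, Ccn2, a secreted matrix protein and target of the YAP/TEAD pathway (adjusted p = 0.000158).

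With no low-count filter, edgeR gave 18 of 43164 genes an adjusted p below 0.05, 13 higher and 5 lower in double positive cells, among them the list members Ccn2, Pdgfra, Psmb8 and Tagln, of which Ccn2 was also called at 2-fold. That fit called 13 genes at 2-fold in all, and 11 of them had also been tested with the filter.

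A count of 0 leaves room for differences that this spread could hide. The median standard error of a log2 fold change was 0.27, with 5 residual degrees of freedom. For 9365 genes (59.1%) the 95% interval of the gate difference lay within 2-fold in both directions, and among 9142 genes of at least 10 CPM in either gate it did so for 7746 (84.7%). Without double positive replicate 2 it did so for 9711 genes (63.5%). The values of the gates did not overlap at 262 genes that were higher (1.65%) and 426 that were lower (2.69%) in double positive cells. Without double positive replicate 2 these were 443 (2.8%) and 657 (4.15%). Across 47 lists of named genes, 482 of 657 members had enough counts to be tested. Of these members 11 were higher and 18 lower without overlap, and 23 had an unadjusted p below 0.05 (4.77% of members, against 2.62% of all genes), none of which passed the adjustment in edgeR with the low-count filter.

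**Figure D1:**
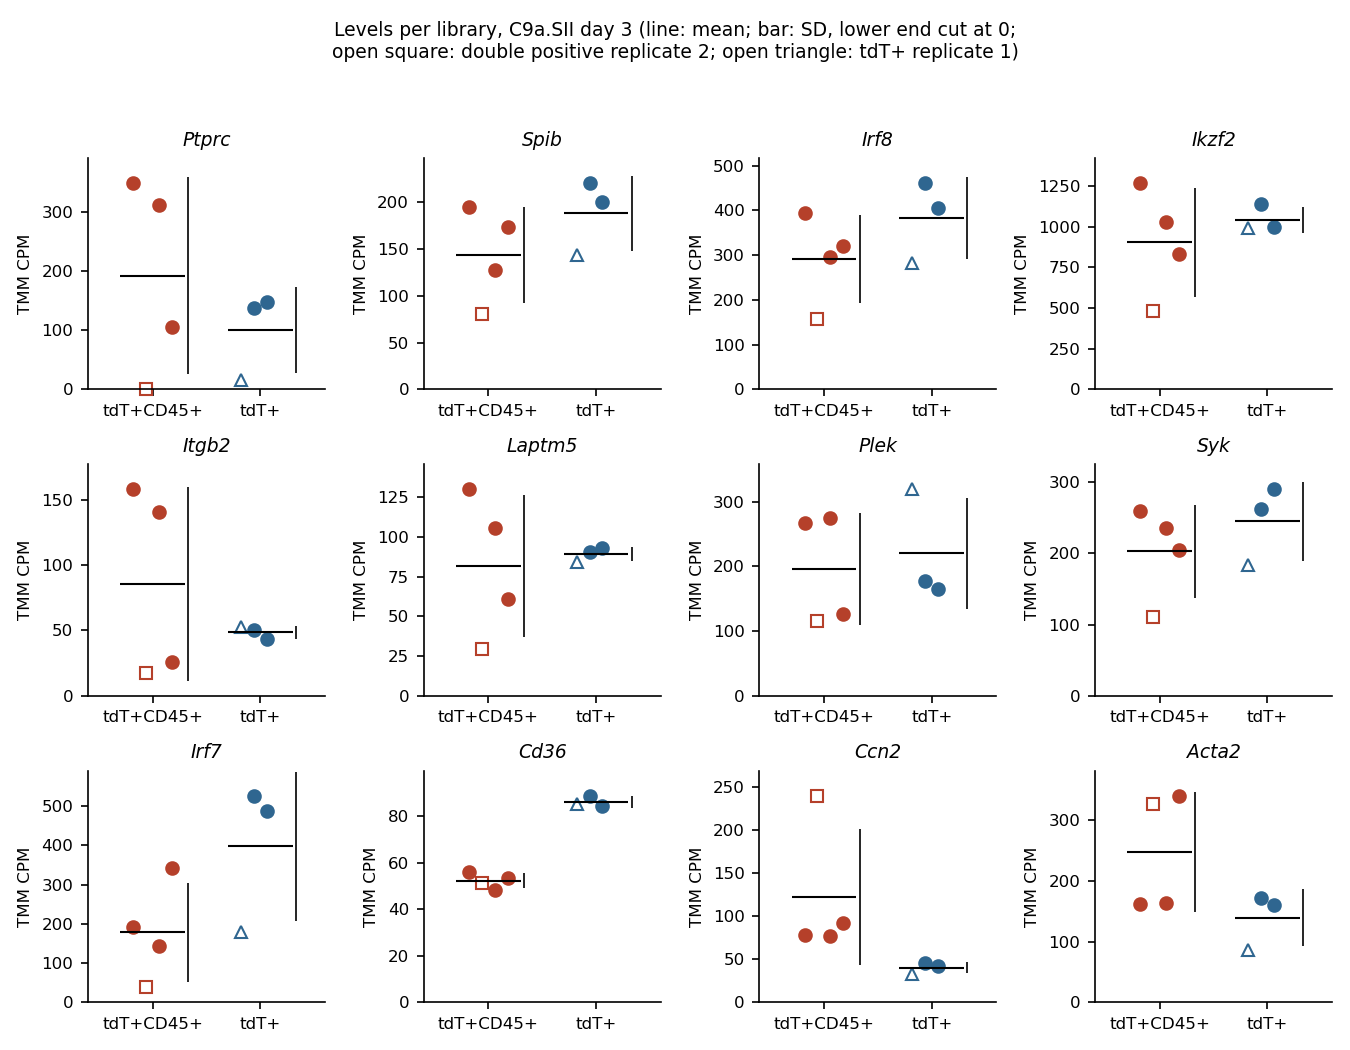
TMM-scaled CPM (vertical axes, from 0) of 12 genes in the 4 tdT+CD45+ libraries (left in each panel) and the 3 tdT+ libraries (right), 1 point a library, with the mean as a line and the SD as a bar. The open square, double positive replicate 2, is lowest for Ptprc (1.48 CPM) and highest for Ccn2, and the groups separate only for Cd36 and Ccn2.

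The transduced factors were abundant in every library and had no positive log2 fold change. Spib had 194, 80.0, 127 and 173 CPM in double positive libraries, against 143.1, 220.3 and 199 CPM in tdT+ libraries, a log2 fold change of -0.39 ± 0.29 (95% interval -1.05 to 0.28). Irf8 had 393, 156, 295 and 321 CPM in double positive libraries, against 283, 461 and 406 CPM in tdT+ libraries, a log2 fold change of -0.40 ± 0.30 (95% interval -1.07 to 0.28). Ikzf2 had 1270.0, 480.4, 1031 and 832 CPM in double positive libraries, against 991, 1137 and 996 CPM in tdT+ libraries, a log2 fold change of -0.20 ± 0.29 (95% interval -0.86 to 0.45). All 3 were lowest in double positive replicate 2, the library that was also lowest for Ptprc. Without it their log2 fold changes were -0.18, -0.18 and 0.01, and the gates overlapped for each. The counts cannot tell RNA of the vectors from that of the cells' own genes. Untransduced fibroblasts of the line had 0.0912 to 0.267 CPM of Spib, 0.547 to 1.57 CPM of Irf8 and 9.74 to 11.9 CPM of Ikzf2 (scaled over 16 libraries).

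Factors of other dendritic cell programmes gave no call. Spi1, which encodes PU.1, had 4.27, 3.53, 3.92 and 3.60 CPM in double positive libraries, against 3.34, 2.31 and 2.77 CPM in tdT+ libraries. Every double positive library was above every tdT+ library, yet the log2 fold change was 0.44 ± 0.30 (SE; 95% interval -0.23 to 1.119). Prdm1, the repressor BLIMP-1, had 45.9, 5.38, 33.6 and 15.2 CPM in double positive libraries, against 30.3, 23.3 and 26.1 CPM in tdT+ libraries, so its spread inside the double positive gate exceeded the gate difference (-0.08 ± 0.57). Irf4 was at 0.128 to 2.78 CPM in double positive and 0.116 to 1.79 CPM in tdT+ libraries. Batf3, a bZIP factor of conventional type 1 dendritic cells, had 7, 4, 2 and 3 counts in double positive libraries and 10, 6 and 9 counts in tdT+ libraries, too few to be tested.

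Genes shared by blood cells differed widely in level, and none passed the test. Of 26 pan-leukocyte genes, 6 had too few counts and 20 were tested, 13 had a positive log2 fold change and the median was 0.06 (0.20 without double positive replicate 2), beside 0.01 over all genes tested. Their summed level was 1057, 505, 1032 and 504 CPM in double positive libraries, against 948, 688 and 681 CPM in tdT+ libraries. Double positive replicates 1 and 3 had the highest sums of the 7 libraries, replicates 2 and 4 the lowest, and the tdT+ libraries lay between them. Laptm5, a lysosomal membrane protein of blood cells, had 130.0, 29.7, 105.6 and 61.3 CPM in double positive libraries, against 84.6, 90.6 and 92.8 CPM in tdT+ libraries (-0.12 ± 0.42, 95% interval -1.09 to 0.84). Its tdT+ values were nearly equal, including replicate 1, which had little Ptprc RNA. Plek, the cytoskeletal adaptor pleckstrin, had 268, 115, 275 and 126 CPM in double positive libraries, against 319, 178 and 165 CPM in tdT+ libraries, and was highest in tdT+ replicate 1. Cd53, a tetraspanin, had 95.7, 18.4, 103.6 and 46.9 CPM in double positive libraries, against 87.4, 57.1 and 61.7 CPM in tdT+ libraries. Was, the actin regulator of blood cells, was lower in every double positive library than in every tdT+ library only when replicate 2 was left out (log2 fold change -0.11, -0.51 without it). In bulk samples, fewer cells of a type and less RNA per cell cannot be told apart.

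Integrins of white blood cells spread widely inside the double positive gate. Itgb2, the CD18 chain shared by the leukocyte integrins, had 158, 17.3, 140.8 and 25.8 CPM in double positive libraries, against 52.5, 50.6 and 43.2 CPM in tdT+ libraries (0.82 ± 0.72, 95% interval -0.83 to 2.46). Double positive replicates 1 and 3 were above all tdT+ libraries and replicates 2 and 4 below all of them. Itgam, the CD11b chain, had 96.7, 28.4, 94.3 and 6.81 CPM in double positive libraries, against 48.0, 21.96 and 16.6 CPM in tdT+ libraries (0.97 ± 0.80, 95% interval -0.88 to 2.82). Its lowest library was double positive replicate 4, which had 106.1 CPM of Ptprc. Itga4, a chain of the integrin VLA-4, was the most abundant, with 556, 389, 608 and 325 CPM in double positive libraries, against 701, 443 and 439 CPM in tdT+ libraries (-0.17 ± 0.26). Of 7 integrin genes tested, 6 had a positive log2 fold change (median 0.56, and 0.49 without double positive replicate 2). Kinases and adaptors of myeloid signalling had 5 positive members of 17 tested and a median of -0.15. Syk, the kinase under many immune receptors, had 260.2, 111, 236 and 205 CPM in double positive libraries, against 183, 263 and 290.1 CPM in tdT+ libraries (-0.27 ± 0.28, 95% interval -0.92 to 0.38). Lyn, a Src family kinase, had 287, 101.5, 302 and 109 CPM in double positive libraries, against 255, 129.8 and 136 CPM in tdT+ libraries (0.20 ± 0.45).

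No marker of a dendritic cell subset passed the test between the gates. None of the 11 tested markers of plasmacytoid dendritic cells, of 20 listed, had a positive log2 fold change, with a median of -0.30 (-0.26 without double positive replicate 2). Irf7, the factor behind type I interferon production in those cells and itself induced by interferon, had 191, 38.1, 142.97 and 343 CPM in double positive libraries, against 179.5, 527 and 488 CPM in tdT+ libraries (-1.15 ± 0.63, 95% interval -2.61 to 0.30). The tdT+ replicate with little Ptprc RNA fell among the double positive libraries, and double positive replicate 4 came closest to the other tdT+ libraries. Tcf4, which encodes the plasmacytoid factor E2-2, had 187, 168, 158 and 157 CPM in double positive libraries, against 261, 169 and 172 CPM in tdT+ libraries. Bst2, a tetherin that interferon also induces, had 89.9, 19.3, 80.2 and 118 CPM in double positive libraries, against 69.8, 117 and 119 CPM in tdT+ libraries. Siglech, a defining plasmacytoid lectin, had 2, 1, 1 and 0 counts in double positive libraries and 2, 1 and 0 counts in tdT+ libraries.

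Defining markers of conventional type 1 dendritic cells were near 0. Clec9a, whose locus drives Cre in this line, had 0, 1, 11 and 0 counts in double positive libraries and 2, 2 and 0 counts in tdT+ libraries. Both its alleles carry Cre in this line, and what Clec9a RNA such alleles can give was not tested. The chemokine receptor Xcr1 had 10, 0, 16 and 2 counts in double positive libraries and 0, 2 and 1 counts in tdT+ libraries. Of 8 tested members of that list 6 had a positive log2 fold change (median 0.11, and 0.26 without double positive replicate 2). The adhesion molecule gene Cadm1 had 24.3, 19.7, 22.2 and 5.27 CPM in double positive libraries, against 15.6, 5.32 and 6.14 CPM in tdT+ libraries (0.98 ± 0.56, 95% interval -0.30 to 2.25), with double positive replicate 4 and tdT+ replicates 2 and 3 alike. Ppt1, a lysosomal thioesterase in that list, had 178, 73.1, 205 and 148 CPM in double positive libraries, against 135, 157 and 158 CPM in tdT+ libraries (0.01 ± 0.30). For type 2 conventional dendritic cells 4 of 9 tested members were positive, with a median of 0.00. The lectin receptor gene Clec12a had 45.8, 18.4, 44.5 and 39.8 CPM in double positive libraries, against 48.3, 54.3 and 56.8 CPM in tdT+ libraries, lower without overlap (-0.51 ± 0.28, 95% interval -1.14 to 0.12). Notch2, a receptor needed for some of these cells, had 185, 229.6, 230.0 and 244 CPM in double positive libraries, against 247, 317 and 303 CPM in tdT+ libraries (-0.38 ± 0.15, 95% interval -0.72 to -0.03). The lectin gene Cd209a had 9, 0, 22 and 0 counts in double positive libraries and 3, 2 and 0 counts in tdT+ libraries. Counts of Clec9a, Xcr1 and Cd209a were highest in double positive replicate 3, which was also the deepest library. P2ry10, a lysophospholipid receptor of blood cells in the pan-dendritic list, had 3.17, 4.27, 5.13 and 3.98 CPM in double positive libraries, against 8.73, 8.78 and 7.33 CPM in tdT+ libraries. Cst3, the protease inhibitor cystatin C, had 257, 110.4, 255 and 135 CPM in double positive libraries, against 253, 182 and 193 CPM in tdT+ libraries (-0.14 ± 0.31). The values of P2ry10 did not overlap and its log2 fold change was -0.996 ± 0.25 (SE; 95% interval -1.56 to -0.43), with an unadjusted p of 0.0032 and an adjusted p of 0.98 in edgeR.

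Antigen presentation genes gave no call either. Cd74, the invariant chain of MHC class II, had 165, 50.1, 152 and 35.6 CPM in double positive libraries, against 111, 82.1 and 76.2 CPM in tdT+ libraries (0.17 ± 0.52, 95% interval -1.01 to 1.35). The class II molecules themselves were low: H2-Ab1 had 0.547, 4.27, 0.641 and 1.54 CPM in double positive libraries, against 0.489, 0.809 and 2.08 CPM in tdT+ libraries, and H2-Aa had 3 counts at most in any library. For class I presentation 2 of 16 members had a positive log2 fold change, with a median of -0.39 (-0.25 without double positive replicate 2), and 3 were lower without overlap. Over all genes tested, 2.69% were lower without overlap. Psmb8, an immunoproteasome subunit, had 65.3, 29.9, 58.5 and 64.4 CPM in double positive libraries, against 79.4, 98.1 and 105.7 CPM in tdT+ libraries (-0.79 ± 0.26, 95% interval -1.37 to -0.21; -0.58 without double positive replicate 2). Tap2, a subunit of the peptide transporter, had 49.5, 24.1, 45.01 and 56.3 CPM in double positive libraries, against 56.4, 63.8 and 61.3 CPM in tdT+ libraries (-0.46 ± 0.25). B2m, the light chain of class I, had 823, 261, 1130.3 and 985 CPM in double positive libraries, against 689, 944 and 986 CPM in tdT+ libraries (-0.13 ± 0.42). Double positive replicate 2 was lowest of the 7 libraries for all 3.

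**Figure D2:**
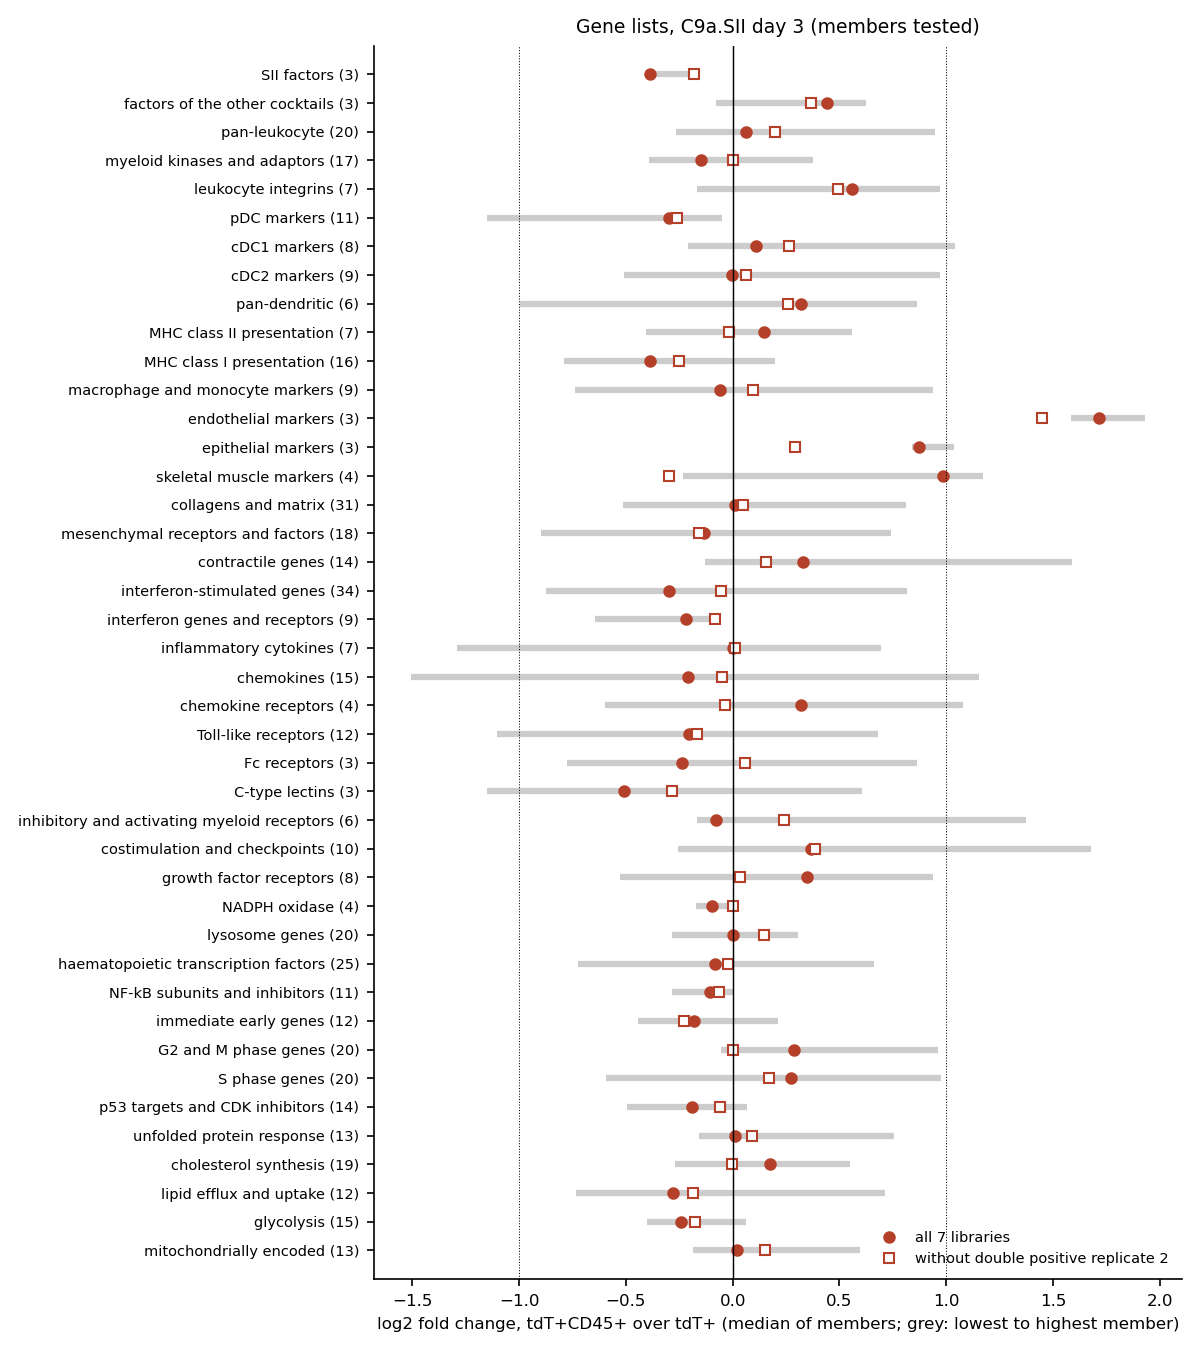
Median log2 fold change, double positive over tdT+ (horizontal axis), of the tested members of each gene list, over all 7 libraries and without double positive replicate 2; the number of tested members stands beside each list. Among lists with 10 or more tested members the medians run from -0.39 (MHC class I presentation) to 0.36 (costimulation and checkpoints).

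Myeloid receptors spread inside the double positive gate as well. Pirb, an inhibitory receptor for class I molecules, had 234, 52.0, 210.0 and 149 CPM in double positive libraries, against 165, 169 and 169.9 CPM in tdT+ libraries (-0.06 ± 0.42, 95% interval -1.02 to 0.91). Its tdT+ libraries were nearly equal, while the highest double positive library was 4.50 times the lowest. Fcgr3, a low affinity Fc receptor, had 38.4, 11.5, 36.1 and 5.14 CPM in double positive libraries, against 22.3, 7.74 and 7.63 CPM in tdT+ libraries (0.86 ± 0.70), high in double positive replicates 1 and 3 and in tdT+ replicate 1. Cybb, the catalytic subunit of the phagocyte NADPH oxidase, had 134, 12.1, 138.3 and 59.2 CPM in double positive libraries, against 95.8, 104.1 and 92.0 CPM in tdT+ libraries (-0.17 ± 0.63), and its membrane partner Cyba had 138.8, 71.8, 128 and 108 CPM in double positive libraries, against 99.4, 129 and 123 CPM in tdT+ libraries (-0.06 ± 0.22). Among 12 Toll-like receptor genes 3 were positive, and Unc93b1, which carries these receptors to endosomes, had 145.5, 79.6, 137 and 92.5 CPM in double positive libraries, against 157, 122 and 126 CPM in tdT+ libraries (-0.24 ± 0.23). Icam1, an adhesion molecule of the costimulation list, had 330.2, 89.7, 349.9 and 275 CPM in double positive libraries, against 183, 374 and 348 CPM in tdT+ libraries (-0.20 ± 0.44). Il4ra, a chain of the interleukin 4 receptor, had 72.2, 44.5, 76.0 and 80.6 CPM in double positive libraries, against 129, 85.4 and 80.6 CPM in tdT+ libraries, with double positive replicate 4 and tdT+ replicate 3 nearly equal (-0.53 ± 0.24, 95% interval -1.07 to 0.02). Of 20 macrophage and monocyte markers 9 were tested and 2 of them were positive. The endosomal glycoprotein gene Cd68 had 14.4, 19.1, 15.9 and 17.3 CPM in double positive libraries, against 21.5, 22.9 and 22.3 CPM in tdT+ libraries (-0.41 ± 0.16, 95% interval -0.77 to -0.06), and Mertk, a receptor for dying cells, had 2.62, 2.60, 2.64 and 3.85 CPM in double positive libraries, against 5.38, 4.74 and 4.56 CPM in tdT+ libraries (-0.74 ± 0.29, 95% interval -1.40 to -0.08). Neither gene's values overlapped between the gates, and neither passed the adjustment. The macrophage growth factor receptor gene Csf1r was low in both gates, with 1.03 to 5.01 CPM in double positive and 0 to 3.02 CPM in tdT+ libraries, and the macrophage gene Adgre1 had 8 counts at most.

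Markers of other cells were scarce. None of 15 granulocyte and mast cell markers, 1 of 10 B cell markers and 1 of 10 T and NK cell markers had enough counts to be tested. Endothelial markers had 3 tested members of 9, led by the VEGF receptor gene Kdr with 9.73, 68.7, 9.69 and 3.21 CPM in double positive libraries, against 10.7, 3.93 and 2.77 CPM in tdT+ libraries. Its high value came from double positive replicate 2 alone. The epithelial keratin gene Krt19 had 4.70, 10.0, 3.20 and 3.34 CPM in double positive libraries, against 2.45, 2.20 and 2.97 CPM in tdT+ libraries, higher without overlap (1.04 ± 0.46). The B cell factor gene Ebf1 (8.97 to 13.1 CPM in double positive, 6.85 to 14.4 CPM in tdT+ libraries), the T cell gene Cd3e (1.03 to 2.56 and 1.19 to 2.08 CPM in the same order of gates), the platelet chemokine gene Ppbp (2.30 to 6.30 and 2.45 to 6.13 CPM) and the muscle stem cell gene Pax7 (3.60 to 4.64 and 3.47 to 6.24 CPM) were low in both gates. Ebf1 was higher in untransduced fibroblasts of the line, at 43.6 to 50.1 CPM (scaled over 16 libraries), so it does not single out B cells here. Summed over all 9 endothelial markers the levels were 20.7, 87.6, 40.6 and 6.42 CPM in double positive libraries, against 19.7, 9.02 and 4.95 CPM in tdT+ libraries. The part of these other cells in any value above was not tested.

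The smallest unadjusted p among list members belonged to Cd36, which encodes a scavenger receptor and fatty acid transporter. It had 56.1, 51.4, 48.3 and 53.3 CPM in double positive libraries, against 85.2, 88.7 and 84.1 CPM in tdT+ libraries. The libraries of each gate lay close together, double positive replicate 2 and tdT+ replicate 1 included, and every double positive library was below every tdT+ library. The log2 fold change was -0.72 ± 0.11 (SE; 95% interval -0.98 to -0.46), and -0.71 without double positive replicate 2. Apoe, the lipid carrier apolipoprotein E, had 25.6, 26.9, 22.99 and 20.2 CPM in double positive libraries, against 46.4, 40.0 and 32.8 CPM in tdT+ libraries, also lower without overlap (-0.73 ± 0.17, 95% interval -1.12 to -0.35). Abca1, the cholesterol exporter, had 279, 69.0, 270.2 and 269 CPM in double positive libraries, against 216, 318 and 318 CPM in tdT+ libraries, and Lpl, lipoprotein lipase, had 225, 31.6, 224 and 253 CPM in double positive libraries, against 87.9, 385 and 364 CPM in tdT+ libraries. Both overlapped, with double positive replicate 2 the lowest. In all, 3 of 12 lipid uptake and efflux genes were positive, with a median of -0.28 (-0.19 without double positive replicate 2) and 2 lower without overlap. Among all genes tested 2.69% were lower without overlap. Neither Cd36 nor Apoe reached the 2-fold threshold or an adjusted p below 0.05 in edgeR.

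Several fibroblast genes were abundant in both gates, though many were below their level in untransduced fibroblasts (given further down). Fn1, fibronectin, was by far the most abundant matrix gene by CPM, with 34624, 25432, 28023 and 17847 CPM in double positive libraries, against 42256, 23024 and 19901 CPM in tdT+ libraries (-0.10 ± 0.33, 95% interval -0.86 to 0.66). Col1a1, a chain of type I collagen, had 749.6, 648, 708 and 1130.0 CPM in double positive libraries, against 629.7, 887 and 839.8 CPM in tdT+ libraries (0.04 ± 0.23, 95% interval -0.47 to 0.56). For 19 of 31 matrix genes the 95% interval lay within 2-fold, 16 were positive and the median was 0.01. Vim, the intermediate filament vimentin, had 3279, 2299, 3182 and 3560.1 CPM in double positive libraries, against 2236, 4429 and 3928 CPM in tdT+ libraries (-0.20 ± 0.26, 95% interval -0.80 to 0.40). Of 18 mesenchymal receptors and factors 5 were positive. Pdgfra, a platelet-derived growth factor receptor of fibroblasts, had 37.8, 28.8, 30.7 and 65.9 CPM in double positive libraries, against 52.5, 89.5 and 86.2 CPM in tdT+ libraries (-0.90 ± 0.31, 95% interval -1.61 to -0.18). Its gates overlapped at double positive replicate 4 and tdT+ replicate 1. Snai2, a zinc finger factor of mesenchymal cells, had 13.7, 11.3, 11.8 and 10.0 CPM in double positive libraries, against 7.99, 6.36 and 6.64 CPM in tdT+ libraries, higher without overlap (0.74 ± 0.20, 95% interval 0.28 to 1.20; 0.76 without double positive replicate 2).

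Contractile genes mostly had positive log2 fold changes, though none passed the test in edgeR with the low-count filter. Of 14 tested, 12 had a positive log2 fold change, 3 were higher without overlap and the median was 0.33, and 0.16 without double positive replicate 2. Over all genes tested, 1.65% were higher without overlap. Ccn2 had 78.1, 239.6, 77.4 and 91.9 CPM in double positive libraries, against 33.4, 45.8 and 42.0 CPM in tdT+ libraries (1.59 ± 0.43, 95% interval 0.61 to 2.57). Replicate 2 stood far above the rest, and without it the log2 fold change was 1.03 ± 0.15 (SE). Tagln, the actin-binding protein transgelin, had 87.3, 228, 93.8 and 131 CPM in double positive libraries, against 60.9, 71.9 and 72.4 CPM in tdT+ libraries (0.98 ± 0.33, 95% interval 0.23 to 1.73; 0.61 without double positive replicate 2). Mylk, myosin light chain kinase, had 4.05, 8.17, 3.84 and 3.08 CPM in double positive libraries, against 2.77, 1.97 and 1.39 CPM in tdT+ libraries (1.20 ± 0.44, 95% interval 0.19 to 2.21). Acta2, smooth muscle actin, had 161, 326, 163 and 339 CPM in double positive libraries, against 86.6, 171 and 160.4 CPM in tdT+ libraries (0.83 ± 0.36, 95% interval 0.01 to 1.64), high in double positive replicates 2 and 4 and low in tdT+ replicate 1. Acta2 was the only one of these 4 whose gates overlapped. Promoter windows of 3 genes of this list are printed because it held the most members, 3, that were higher without overlap, a choice made after the values were seen. Of those 3 members, Ccn2, Tagln and Mylk, the window of Mylk is shown and no window was used for the other two; the gates overlapped for the other genes shown, Acta2 and Ccn1. Capitals mark the core letters of the TEAD motif, GGAATG or its reverse CATTCC on the strand shown. All 3 windows printed are among those that hold these letters, and windows of the list without them are not shown.

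Acta2, chr19:34255374-34255623, minus strand: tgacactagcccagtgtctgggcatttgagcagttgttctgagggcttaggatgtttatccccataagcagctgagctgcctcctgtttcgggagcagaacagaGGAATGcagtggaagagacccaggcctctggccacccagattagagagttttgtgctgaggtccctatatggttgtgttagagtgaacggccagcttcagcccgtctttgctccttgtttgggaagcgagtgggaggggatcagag
Mylk, chr16:34784700-34784949, plus strand: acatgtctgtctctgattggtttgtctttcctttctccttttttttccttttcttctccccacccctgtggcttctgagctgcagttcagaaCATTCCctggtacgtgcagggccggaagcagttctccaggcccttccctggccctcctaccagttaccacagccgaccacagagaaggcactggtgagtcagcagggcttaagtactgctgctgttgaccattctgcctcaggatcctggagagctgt
Ccn1, chr3:145649986-145650235, minus strand: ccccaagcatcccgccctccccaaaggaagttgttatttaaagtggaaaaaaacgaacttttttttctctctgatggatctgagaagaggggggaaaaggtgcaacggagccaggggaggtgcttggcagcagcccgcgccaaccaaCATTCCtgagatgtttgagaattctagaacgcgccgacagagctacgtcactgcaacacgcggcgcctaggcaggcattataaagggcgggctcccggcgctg

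These letters stood in windows of 7 of the 11 contractile genes that have one, against 14.4% of 27025 genes. The CArG box, a motif of serum response factor, was searched as well, only as CC and GG around an unbroken run of A and T. In that strict form it stood in windows of 2 of the 11, Cnn2 and Myl9, against 1.62% of genes. Looser forms were not searched, so other windows, those printed above included, may hold them. These matches say nothing about binding. Ccn1, another matrix protein of that pathway, had 221, 381, 229 and 253 CPM in double positive libraries, against 235, 216 and 218 CPM in tdT+ libraries (0.28 ± 0.20), and its gates overlapped. Cald1, caldesmon, was the most abundant of the list by CPM, with 1658, 2627, 1416 and 1465 CPM in double positive libraries, against 2029, 1461 and 1295 CPM in tdT+ libraries (0.17 ± 0.27).

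**Figure D3:**
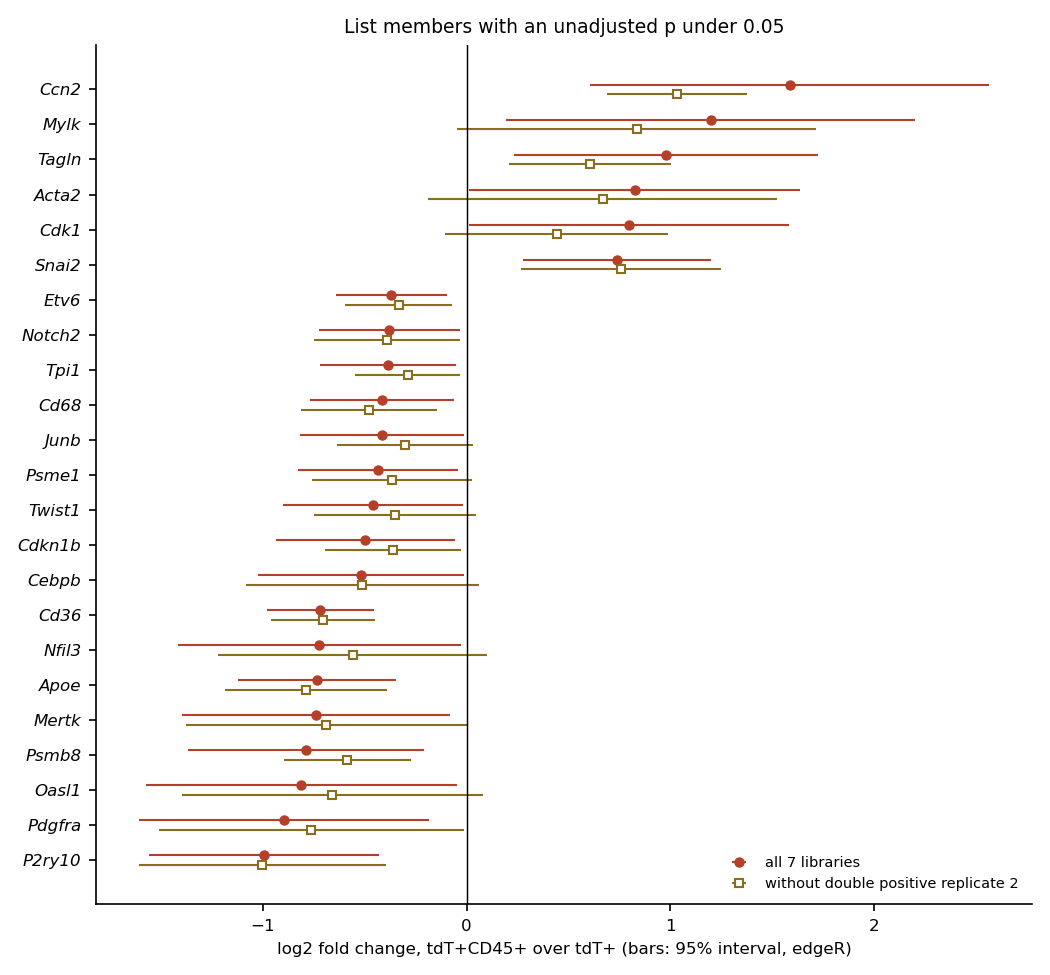
Log2 fold change, double positive over tdT+, with its 95% interval (horizontal axis) for the 23 list members with an unadjusted p below 0.05, over all 7 libraries and without double positive replicate 2. Ccn2, Mylk and Tagln lie on the positive side and Cd36 has the narrowest interval; none passed the adjustment over all genes in edgeR with the low-count filter.

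Interferon-stimulated genes had 8 positive members of 34, with a median of -0.30 that moved to -0.05 without double positive replicate 2. Their summed level was 2045, 691, 1993 and 1942 CPM in double positive libraries, against 1812, 2106 and 2154 CPM in tdT+ libraries, so the low sum belonged to double positive replicate 2. Jak1, a kinase of interferon receptors, had 732, 339, 739.7 and 557 CPM in double positive libraries, against 728, 657 and 633 CPM in tdT+ libraries. Oasl1, a target with the lowest unadjusted p of the list (0.039), had 3.83, 2.97, 4.97 and 6.55 CPM in double positive libraries, against 5.46, 10.3 and 8.62 CPM in tdT+ libraries (-0.81 ± 0.34, 95% interval -1.58 to -0.05). None of the 9 tested interferon receptors and signalling genes had a positive log2 fold change (median -0.22, and -0.08 without double positive replicate 2). Ifnb1 had 20, 2, 9 and 2 counts in double positive libraries and 15, 2 and 3 counts in tdT+ libraries. Among cytokines, Spp1, osteopontin, had 419, 959, 426 and 929 CPM in double positive libraries, against 616, 769 and 764 CPM in tdT+ libraries. The chemokine gene Ccl2 had 197, 97.4, 228 and 273 CPM in double positive libraries, against 189.6, 302 and 306 CPM in tdT+ libraries, and Ccl5 had 1.42, 0.186, 2.08 and 15.5 CPM in double positive libraries, against 3.75, 17.2 and 20.4 CPM in tdT+ libraries (-1.51 ± 1.04, 95% interval -3.90 to 0.88). For Ccl5, double positive replicate 4 stood with tdT+ replicates 2 and 3, and the other 4 libraries were low. For 10 of 11 NF-kB subunits and inhibitors the 95% interval lay within 2-fold, with a median of -0.11. Nfkbiz, an inducible co-regulator of NF-kB, had 267, 148, 225 and 176 CPM in double positive libraries, against 297, 168 and 180.2 CPM in tdT+ libraries (-0.07 ± 0.26). Immediate early genes had 5 positive members of 12 and a median of -0.18, with Fosl2, a subunit of AP-1, at 169, 235, 176 and 215 CPM in double positive libraries, against 201, 214 and 215 CPM in tdT+ libraries (-0.08 ± 0.15). Haematopoietic transcription factors had 12 positive members of 25 and a median of -0.08. Zeb2, a repressor active in dendritic cells and in mesenchymal cells, had 426, 225, 377 and 279 CPM in double positive libraries, against 447, 328 and 328 CPM in tdT+ libraries (-0.17 ± 0.24). Etv6, an Ets repressor, was lower without overlap, at 61.6, 58.7, 63.0 and 68.9 CPM in double positive libraries, against 87.5, 80.9 and 75.8 CPM in tdT+ libraries (-0.37 ± 0.12, 95% interval -0.64 to -0.09). Nfil3 and Cebpb, bZIP factors of this list, had log2 fold changes of -0.72 ± 0.31 and -0.52 ± 0.22 with overlapping gates. Cebpb is not confined to blood cells, and untransduced fibroblasts of the line had 150 to 175 CPM (scaled over 16 libraries).

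Proliferation genes mostly had positive log2 fold changes, with double positive replicate 2 the highest library. Of 20 G2 and M phase genes 19 had a positive log2 fold change, with a median of 0.29 that went to 0.00 without double positive replicate 2. Mki67, a marker of cycling cells, had 44.4, 83.2, 40.4 and 27.8 CPM in double positive libraries, against 46.3, 33.8 and 33.0 CPM in tdT+ libraries (0.37 ± 0.34, 95% interval -0.41 to 1.15). Cdk1, the mitotic kinase, had 8.75, 20.0, 9.93 and 8.87 CPM in double positive libraries, against 8.65, 5.78 and 5.84 CPM in tdT+ libraries (0.80 ± 0.35, 95% interval 0.01 to 1.58). S phase genes had 18 positive members of 20 and a median of 0.27 (0.17 without double positive replicate 2), with Rrm1, a subunit of ribonucleotide reductase, at 29.7, 41.4, 34.3 and 29.7 CPM in double positive libraries, against 37.4, 27.6 and 24.4 CPM in tdT+ libraries (0.18 ± 0.20). Targets of p53 and inhibitors of cyclin-dependent kinases had 3 positive members of 14 and a median of -0.19. Ccng1, a p53 target, had 494, 319, 559.8 and 662 CPM in double positive libraries, against 399, 679 and 677 CPM in tdT+ libraries (-0.20 ± 0.28). Cdkn1b, an inhibitor of cyclin-dependent kinases, had 49.8, 28.8, 37.3 and 45.9 CPM in double positive libraries, against 52.9, 55.7 and 62.9 CPM in tdT+ libraries, lower without overlap (-0.50 ± 0.19, 95% interval -0.94 to -0.06). Cholesterol synthesis genes had 16 positive members of 19 and a median of 0.18, and 0.00 without double positive replicate 2. All 15 glycolysis genes had an interval within 2-fold, 13 were negative and the median was -0.24 (-0.18 without double positive replicate 2). Tpi1, triosephosphate isomerase, had 166, 123, 154 and 169 CPM in double positive libraries, against 185, 208 and 207 CPM in tdT+ libraries (-0.38 ± 0.15, 95% interval -0.72 to -0.05), and Pkm, pyruvate kinase, 1225, 1247, 1199.7 and 1349.8 CPM in double positive libraries, against 1330.3, 1539 and 1474 CPM in tdT+ libraries (-0.21 ± 0.14). For 17 of 20 lysosome genes and 11 of 13 unfolded protein response genes the interval also lay within 2-fold, with medians of 0.00 and 0.01. Ctsb, a lysosomal protease, had 1722, 782, 1795 and 1292 CPM in double positive libraries, against 1445, 1501 and 1484 CPM in tdT+ libraries (-0.08 ± 0.27). Hsp90b1, a chaperone of the endoplasmic reticulum, had 939, 839.5, 884 and 1037 CPM in double positive libraries, against 863, 1107 and 1043 CPM in tdT+ libraries (-0.12 ± 0.16), and the mitochondrially encoded mt-Co1, a subunit of cytochrome oxidase, had 2065, 1776, 2752 and 2570.3 CPM in double positive libraries, against 2376, 2838 and 2606 CPM in tdT+ libraries (-0.19 ± 0.20).

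Libraries of the double positive gate differed among themselves at more genes, by the median over pairs, than libraries of different gates did. Over all 15836 genes tested, and on the scale of log2(CPM + 2), 2 libraries of different gates differed by 2-fold or more at a median of 797.5 genes and at most 2182 (12 pairs). Within the double positive gate this was 282 to 1961 genes (median 1512.5 over 6 pairs), and within the tdT+ gate 197 to 710 (median 633 over 3 pairs). Without replicate 2, the pairs within the double positive gate differed at 282, 1016 and 1492 genes, and those across the gates at a median of 511 and at most 1192. The pair with the fewest such genes of all crossed the gates and joined double positive replicate 4 with tdT+ replicate 3. Double positive replicates 1 and 3 differed at 282 genes, and double positive replicate 1 and tdT+ replicate 1 at 261. For 2084 of the 9142 genes of at least 10 CPM in either gate (22.8%) the highest double positive library was at least 2-fold above the lowest, for 1016 (11.1%) without replicate 2, against 675 (7.38%) among the tdT+ libraries.

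Other groups of the same line put these levels on a scale, with values rescaled over 16 libraries. The CD45+ gate of the same day held 5 libraries and untransduced C9a fibroblasts, sorted as tdT-CD45-, held 4. Ptprc had 339, 380.3, 379, 336 and 20.5 CPM in the CD45+ libraries and 0.153 to 0.369 CPM in untransduced fibroblasts. Replicate 5 of the CD45+ gate thus stood apart, as it did for Itgb2 at 9.28 CPM against 137 to 163 CPM in the other 4. Itgb2 was at 16.5 to 158 CPM in double positive libraries, 43.8 to 51.2 CPM in tdT+ libraries and 0.307 to 1.01 CPM in untransduced fibroblasts. Pirb was at 49.8 to 234 CPM in double positive libraries, 161 to 172 CPM in tdT+ libraries and 0 to 0.267 CPM in untransduced fibroblasts. The lowest library of each of these gates thus still lay above the fibroblasts for both genes. Fibroblast genes did not all follow 1 direction. Fn1 was higher than in untransduced fibroblasts, at 17900 to 34690 CPM in double positive libraries, 20173 to 41193 CPM in tdT+ libraries and 8607 to 9119 CPM in untransduced fibroblasts. Col1a1 and Acta2 were lower. Every listed collagen gene had a lower mean in both gates. Col3a1 had means of 310, 417 and 2079 CPM in double positive, tdT+ and untransduced libraries. Col1a1 was at 620.3 to 1133 CPM in double positive libraries, 614 to 889.8 CPM in tdT+ libraries and 6422 to 6982 CPM in untransduced fibroblasts, and Acta2 at 158 to 340.5, 84.4 to 172 and 1372 to 1460.0 CPM in the same groups. Vim differed less, at 2201 to 3571 CPM in double positive, 2179 to 4440.5 CPM in tdT+ and 2602 to 2704 CPM in untransduced libraries. Cd36 was at 46.9 to 56.2 CPM in double positive, 83.1 to 88.9 CPM in tdT+, 39.9 to 54.9 CPM in 4 CD45+ libraries with 13.96 CPM in the fifth, and 0 to 0.182 CPM in untransduced fibroblasts.

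**Figure D4:**
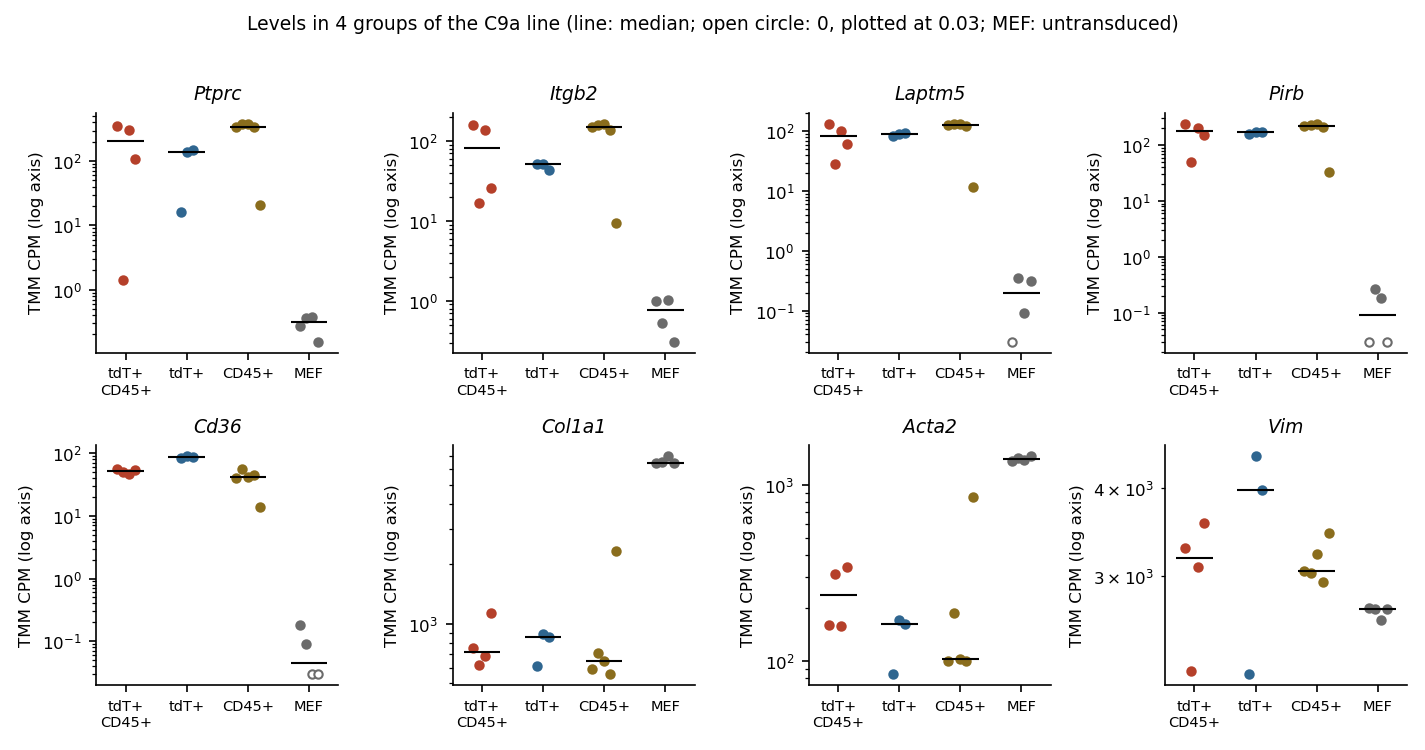
TMM-scaled CPM on log axes of 8 genes in the tdT+CD45+, tdT+ and CD45+ libraries of day 3 and in untransduced C9a fibroblasts (MEF), 1 point a library with the median as a line; open circles mark 0, drawn at 0.03. Ptprc, Itgb2, Laptm5, Pirb and Cd36 lie above MEF in every transduced library, and Col1a1 and Acta2 lie below it.

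The same pair of gates was sorted on day 3 from another reporter line under the same cocktail. The hCD2 line is heterozygous for hCD2(Cre/WT) and Rosa26 (YFP/WT) on a C57BL/6 background and gave 4 YFP+CD45+ and 5 YFP+ libraries. The lines differ in the Cre driver, the reporter and the number of allele copies, so these cannot be told apart. Tested in 1 edgeR fit over both lines, the gate difference itself differed at 563 of 17330 genes, 388 with a positive difference, C9a minus hCD2 (2.24%), and 175 with a negative one (1.01%). In that fit the C9a gate had 0 calls and 1292 genes at an unadjusted p below 0.05, and the hCD2 gate had 766 genes higher (4.42%) and 848 lower (4.89%) in YFP+CD45+ cells. These counts depended on single libraries. They were 9 without C9a tdT+ replicate 3, 15 without C9a tdT+ replicate 2, 328 without double positive replicate 2 and 1890 without YFP+ replicate 5, of which 1004 were positive and 886 negative.

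The reporter gates of the lines differed in the sorting marker itself. On the scale of the joint fit Ptprc had 349, 1.46, 312 and 107 CPM in C9a double positive libraries, against 16.2, 135 and 148 CPM in C9a tdT+ libraries. The hCD2 line had 258, 211, 278 and 293 CPM in YFP+CD45+ libraries, against 0.890, 0.708, 0.489, 0.483 and 34.6 CPM in YFP+ libraries. RNA of all 3 factors rose in YFP+CD45+ relative to YFP+ cells. Spib had 186, 185, 269 and 266 CPM in YFP+CD45+ libraries, against 31.6, 33.4, 37.4, 35.9 and 152 CPM in YFP+ libraries. The difference of the gate differences was -2.34 ± 0.66 for Spib, -2.36 ± 0.68 for Irf8 and -2.11 ± 0.58 for Ikzf2, C9a minus hCD2, with adjusted p from edgeR of 0.056, 0.058 and 0.051, so none was called.

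By list, G2 and M phase genes held 11 of 20 positive differences and S phase genes 8 of 20. Over all genes tested 2.24% had a positive difference and 1.01% a negative one. In the hCD2 line 14 of the 20 G2 and M phase genes fell in YFP+CD45+ cells, beside 4.89% of all genes. Matrix genes held 7 positive differences of 31, mesenchymal genes 5 of 18, interferon-stimulated genes 4 of 34 and contractile genes 3 of 14. Pan-leukocyte genes held 1 negative difference of 20, although 11 of the 20 rose in YFP+CD45+ cells, beside 4.42% of all genes. These list counts rest on single libraries, since without C9a tdT+ replicate 3 or 2 the differences numbered 9 or 15 over all genes. The pan-leukocyte gene was Nckap1l, a part of the WAVE actin complex of blood cells, with 7.10 to 11.3 CPM in C9a double positive libraries and 7.32 to 10.5 CPM in C9a tdT+ libraries, and 7.79 to 10.6 CPM in YFP+CD45+ and 0.509 to 2.30 CPM in YFP+ libraries (difference -2.71 ± 0.42). Cd36 differed too, with 48.3 to 56.1 CPM in C9a double positive and 84.0 to 87.6 CPM in C9a tdT+ libraries, and 20.3 to 31.5 CPM in YFP+CD45+ and 5.98 to 20.0 CPM in YFP+ libraries (difference -2.24 ± 0.45, edgeR adjusted p = 0.021).

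The largest differences among genes of at least 10 CPM were these. Cc2d2a, a protein of the primary cilium, differed by 3.44 ± 0.73, with 2.96 to 8.02 CPM in C9a double positive and 1.45 to 3.36 CPM in C9a tdT+ libraries, and 0.515 to 3.18 CPM in YFP+CD45+ and 3.17 to 13.2 CPM in YFP+ libraries. Mmp3, the matrix protease stromelysin, differed by 3.41 ± 0.93, and Myc, the growth factor-responsive transcription factor, by 3.21 ± 0.73. Myc had 7.69 to 35.5 CPM in C9a double positive and 4.95 to 6.59 CPM in C9a tdT+ libraries, and 5.76 to 17.8 CPM in YFP+CD45+ and 19.9 to 46.0 CPM in YFP+ libraries. On the negative side, Fam13a differed by -3.19 ± 0.86, Fgd2, a Cdc42 exchange factor of antigen-presenting cells, by -3.35 ± 0.83, and Selenbp1, a selenium-binding protein, by -3.79 ± 0.90. Fgd2 was level between the C9a gates, at 15.5 to 35.7 CPM in double positive and 22.6 to 26.3 CPM in tdT+ libraries, but had 14.6 to 18.5 CPM in YFP+CD45+ and 0.245 to 5.39 CPM in YFP+ libraries. All 6 calls were lost when C9a tdT+ replicate 2 or replicate 3 was left out, and when any of YFP+ replicates 1 to 4 was left out.

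Another cocktail in the C9a line, PIB (Pu.1, Irf8 and Batf3), gave 4 tdT+CD45+ and 4 tdT+ libraries on day 3 from the same genotype. Here the gate difference differed from that of SII at 20 of 18618 genes, 14 positive (0.0752%) and 6 negative (0.0322%), SII minus PIB. In that fit SII had 0 gate calls and 1323 genes at an unadjusted p below 0.05, and PIB had 37 genes higher (0.199%) and 67 lower (0.36%) in double positive cells. The count was 4 without SII tdT+ replicate 2, 7 without SII tdT+ replicate 3, 52 without SII double positive replicate 2 and 54 without SII tdT+ replicate 1. Ptprc separated the PIB gates fully, at 106.02 to 135 CPM in tdT+CD45+ and 6.90 to 10.5 CPM in tdT+ libraries.

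Cd36 had gate differences of opposite sign under the cocktails. On the scale of this joint fit it had 45.4 to 53.1 CPM in SII double positive and 80.5 to 84.4 CPM in SII tdT+ libraries. Under PIB it had 42.3, 40.1, 42.3 and 39.2 CPM in double positive libraries, against 19.7, 19.2, 18.1 and 19.3 CPM in tdT+ libraries, and rose by 1.1 ± 0.09 (log2, SE). The difference was -1.84 ± 0.13 (edgeR adjusted p = 2.6e-06). The call held in 19 of 19 alternatives, as did that of Rgs16, a regulator of G protein signalling, with 2.42 ± 0.32. Rgs16 had 7.15 to 10.5 CPM in SII double positive and 2.698 to 5.61 CPM in SII tdT+ libraries, and 5.55 to 8.90 CPM in PIB double positive and 16.7 to 21.9 CPM in PIB tdT+ libraries. Ccn2 differed by 2.55 ± 0.42 (edgeR adjusted p = 0.025), with 80.9 to 111 CPM in PIB double positive and 176 to 212 CPM in PIB tdT+ libraries, and Tagln by 2.09 ± 0.34. F3, the clotting starter tissue factor, differed by 2.43 ± 0.37. Pde1b, a phosphodiesterase, differed by -2.06 ± 0.31, Clec7a, the fungal receptor Dectin-1, by -2.21 ± 0.36, and Nckap1l by -1.25 ± 0.23. Clec7a had 0.621 to 2.32 CPM in SII double positive and 2.09 to 3.70 CPM in SII tdT+ libraries, and 23.6 to 26.3 CPM in PIB double positive and 11.8 to 13.8 CPM in PIB tdT+ libraries. Leaving out SII tdT+ replicate 2 ended the calls of Ccn2, F3, Pde1b and Clec7a, and any of 11 single libraries ended that of Ccn2.

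**Figure D5:**
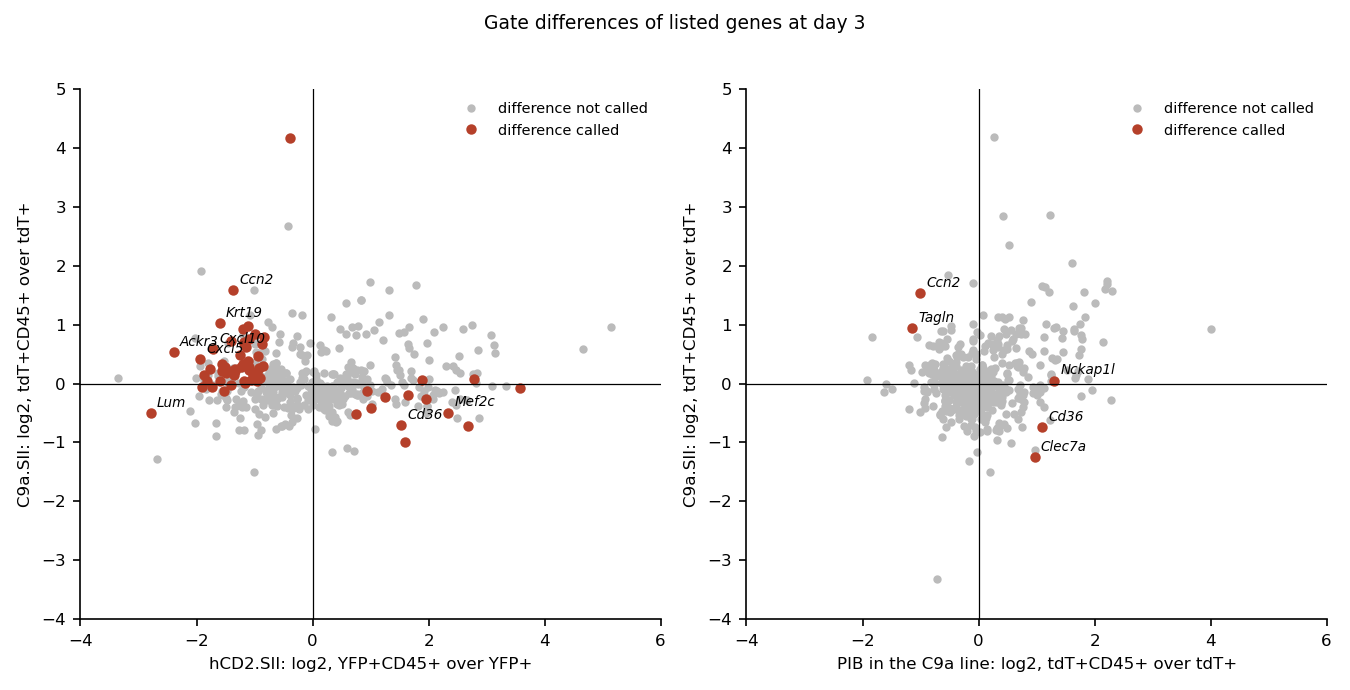
Log2 fold change of list members between the gates, double positive over reporter, in C9a.SII against the same in hCD2.SII and in PIB, each from its joint fit. C9a.SII values crowd near 0 while the hCD2.SII values spread to both sides; Cd36 is negative in C9a.SII and positive in PIB.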

How the data were processed

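The deposited table held whole-number counts per gene for 167 libraries. Extractions of 5000 cells were made into libraries with a stranded total RNA kit and 13 to 14 PCR cycles, per the labels' protocols. The submitters' processing notes name mm10, STAR 2.7.9a and Salmon 1.10.1 without their roles; strand setting and annotation are not given in the sources used here, so overlapping genes and close copies may share reads. Identifiers without a gene name (4981 of 57010) stayed in library sizes and tests and are not named. The 134 columns of other libraries were not used. Gene names came from GENCODE M21, and promoter windows (250 bases, chosen after the values were seen) from RefSeq on GRCm38.p6.

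Groups were taken from the sample labels. Genes were kept by edgeR's filterByExpr, scaled by TMM, and tested with edgeR 4.0.16 (quasi-likelihood, R 4.3.3, limma 3.58.1) over the 7 libraries with no covariate. A call needed a Benjamini-Hochberg adjusted p below 0.05 over all genes tested and at least 2-fold. Gate differences were compared between lines and between cocktails by an interaction term. Alternatives were DESeq2 1.42.0, other scaling, no filter, a replicate block, a 16-library fit and each library left out. The scripts were tested on simulated data. All 21 pairs of the 7 libraries differed by more than counting noise (chi-square per degree of freedom 8.54 to 100.2), so all were counted separately.

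The members and lists were chosen with earlier results of these data known. Named were the cocktail factors and Ptprc, up to 3 called members and the most abundant uncalled member of each list, and the 3 highest and 3 lowest called genes of each interaction; some genes that this rule names are not reported here, and other genes named were chosen after their values were seen. Ptprc stayed in the fits and among the tested list members, but its test is not reported.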

Additional observations from a re-analysis of the deposited data

Results flagged for a closer look

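Single libraries stood apart from the others of their group in 10 of 73 groups of values examined, 2 of them among 49 genes in the double positive gate. Chance gives about 1 in 20 for independent, normally distributed values. The groups of values shared libraries, and several of those that stood apart came from the same library, so the counts cannot be set against that rate. Kdr reached 68.7 CPM in double positive replicate 2, against 3.21 to 9.73 CPM in the other 3. Abca1 was at 69.0 CPM in the same library, against 269 to 279 CPM in the others. In the CD45+ gate of the same day, replicate 5 had 20.5 CPM of Ptprc, against 336 to 380 CPM in the other 4, and 506 CPM of Ikzf2, against 1051 to 1257 CPM. Replicate 5 of the hCD2 YFP+ gate had 34.6 CPM of Ptprc (others 0.483 to 0.890), 152 CPM of Spib (31.6 to 37.4), 334 CPM of Irf8 (66.7 to 78.6) and 827 CPM of Ikzf2 (224 to 231). Under PIB, tdT+CD45+ replicate 3 had 106.02 CPM of Ptprc (others 133 to 135), and tdT+ replicate 2 had 10.5 CPM (others 6.90 to 7.41).

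Gate differences that differed between lines, C9a.SII minus hCD2.SII on the log2 scale in edgeR, were 3.44 for Cc2d2a, 3.41 for Mmp3, 3.21 for Myc, -3.19 for Fam13a, -3.35 for Fgd2 and -3.79 for Selenbp1. Between cocktails, SII minus PIB, they were 2.55 for Ccn2, 2.43 for F3, 2.42 for Rgs16, -1.84 for Cd36, -2.06 for Pde1b and -2.21 for Clec7a.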

How the results depend on the processing

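Counts of 0 higher and 0 lower genes between the C9a.SII gates held under other size factors, DESeq2, the 16-library fit and every library left out, singly (at most 1322 at an unadjusted p below 0.05). With no low-count filter, edgeR called 12 higher and 1 lower of 43164 genes at 2-fold, 1 of them a list member, Ccn2 (adjusted p = 1.77e-07, against up to 1 in the other alternatives). Of these 13 calls, 11 were of genes that the main fit had tested as well, so they were not only genes added without the filter. DESeq2 without double positive replicate 2, chosen after seeing the data, called 1 higher, again a list member, Ccn2 (1 member). The cause was not tested. Replicate numbers did not pair the samples (correlations of same-numbered deviations 0.0963, -0.22 and -0.255), and the replicate block gave 0 and 0 calls, with 872 genes at an unadjusted p below 0.05. Under other numbers the correlations ran from -0.548 (double positive replicate 4, tdT+ replicate 1) to 0.562 (double positive replicate 4, tdT+ replicate 3). No covariate of the main test covered this, and its cause was not tested.

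The 563 gate differences between lines (388 positive, 175 negative) became 1260 with DESeq2 (822 and 438) and 1638 with the replicate block (814 and 824), and ranged from 9 to 1890 with single libraries left out. The excess of positive differences was thus absent with the replicate block. The 20 between cocktails became 127 with no filter, 1.0e2 with DESeq2 (67 positive and 35 negative) and 18 with the replicate block, and ranged from 4 to 54 with single libraries left out. No called result changed sign. Of the single genes, 25 of the calls between cocktails and 68 of those between lines, counted over genes and alternatives, were lost under an alternative. With 5 residual degrees of freedom the interval reached beyond 2-fold for all but 59.1% of genes, so changes of 2-fold stayed possible there. Smaller changes could go undetected at the other genes too, since the lowest adjusted p in edgeR with the low-count filter was 0.98.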
